A study of Mus musculus with 24 samples.

Results

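The subject of these results is the effect of urolithin A on the hippocampal transcriptome of APP/PS1 mice at the end of a long oral treatment. Its members are the arrays titled APP-PS1_UA (n = 4) and APP-PS1_CTR (n = 3), which are 7 of the 24 arrays of the series. APP-PS1_UA mice received urolithin A by gavage and APP-PS1_CTR mice received water, in both cases between 2 and 7 months of age. Both groups were male, both have the genotype "+ APP + PSEN" of the B6.Cg-Tg(APPswe,PSEN1dE9)85Dbo/J line, and the characteristics give an age of 8 months for both, whereas the design text places collection at 7 months. The dose is also given in 2 ways, as 200 mg/kg/day by the protocol for treatment but as 20 mg/kg/day by the text on the design, and the files do not settle it. The other groups used here, as a background to this comparison, are APP-PS1_UA-WASHOUT (n = 5) and APP-PS1_WASHOUT (n = 3), transgenic males sampled 1 month after gavage with urolithin A or water had ended (labelled 9 months), and WT_CTR (n = 4), males of genotype "- APP - PSEN" given water and labelled 8 months. The remaining group, WT_WASHOUT (n = 5), is wild type by its title, received no urolithin A and is labelled 9 months. It was sampled 1 month after gavage had ended and enters the model fitted over all 24 arrays.

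Urolithin A is made by gut bacteria from the ellagitannins of pomegranates, berries and nuts. It is known for inducing mitophagy, in which damaged mitochondria are marked, enclosed by autophagosomes and digested in lysosomes, and it has also been described as a ligand of the aryl hydrocarbon receptor (AHR) and an activator of the antioxidant factor NRF2. APP/PS1 mice express mutant human amyloid precursor protein and presenilin from the mouse prion promoter and form amyloid plaques, around which microglia take on a plaque-associated state and astrocytes raise Gfap.

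RNA was labelled with Cy3 and hybridised to 1-colour Agilent arrays. Every level below is the log2 processed signal of a probe minus the 75th percentile of its array, so that 0 is a bright signal and most probes lie below it, and every difference is the APP-PS1_UA mean minus the APP-PS1_CTR mean on that log2 scale, and its standard error (SE) comes from the limma model. Between 69.5% and 71.9% of the spots of the 4 APP-PS1_UA arrays and between 70.6% and 71.7% of the spots of the 3 APP-PS1_CTR arrays were well above background (two-sided exact permutation p = 0.914, 35 arrangements). The E1A spike-in probes, an added control RNA, averaged -8.29 ± 0.20 (SD, n = 4) in APP-PS1_UA and -8.31 ± 0.16 (SD, n = 3) in APP-PS1_CTR. The 24 arrays lay on 3 slides: APP-PS1_UA 1 shared slide 1 with all 3 APP-PS1_CTR arrays and all WT_CTR arrays, and APP-PS1_UA 2, 3 and 4 lay on slide 2 with the WT_WASHOUT arrays. Treatment and slide therefore cannot be told apart for 3 of the 4 treated arrays. These 3 and the WT_CTR arrays lay in array row 1, whereas APP-PS1_CTR and APP-PS1_UA 1 lay in row 2. The median background was 35 to 36 in APP-PS1_CTR, 33 in APP-PS1_UA 1 and 42 in each of APP-PS1_UA 2, 3 and 4. Between the 2 groups of arrays its two-sided exact permutation p was 0.229 (35 arrangements). APP-PS1_UA 1 is read on its own where it departs most. Its own difference from the controls was under 1/1.5 of the printed one in 8 of the 24 top genes and in 57 of the 91 list members without overlap, which by that choice keep their sign. A bulk hippocampus does not separate fewer cells of a type from less RNA per cell.

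The transgenic state of the 7 arrays was plain in 2 genes. Prnp, whose promoter drives both transgenes, stood at 6.84, 6.67, 6.99 and 6.86 in APP-PS1_UA and at 6.91, 6.84 and 6.84 in APP-PS1_CTR, against a mean of 5.38 ± 0.17 (SD, n = 4) in WT_CTR. Cst7, the protease inhibitor cystatin F of plaque-associated microglia, stood at -0.00, -0.81, 0.84 and -0.44 in APP-PS1_UA and at 0.09, -0.09 and 0.28 in APP-PS1_CTR, against -5.83 ± 0.62 (SD, n = 4) in WT_CTR. All 7 arrays lay far above WT_CTR for both genes, and the groups with and without urolithin A overlapped for both.

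The comparison asked which hippocampal genes differ after urolithin A. Of 35205 features tested (18540 with a gene symbol, the rest unnamed probes), 0 passed a Benjamini-Hochberg adjusted p of 0.05 in limma (0%). At an unadjusted p under 0.05 there were 1417 higher (4.02%) and 1173 lower (3.33%) features. The 2 groups did not overlap at 3842 features (10.9%), of which 2025 were higher (5.75%) and 1817 lower (5.16%) in APP-PS1_UA. The call of 0 depended on the setting. Limma called 11 features with the slide as a block, 9 with slide and array row as blocks, 1 without APP-PS1_CTR 1 and 3 without APP-PS1_CTR 2. With array quality weights it called 7, among them the genes Nrg4 (1.15, adjusted p = 0.0246) and Olfr665 (-1.77, adjusted p = 0.0257). Over features the SD between arrays had a median of 0.231 for the APP-PS1_UA group and 0.152 for APP-PS1_CTR, beside 0.258 for WT_CTR. Because no gene passed, the genes below are described by their levels, and none is said to have changed.

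The gene with the smallest adjusted p was Nrg4, which encodes neuregulin 4, an EGF-family ligand of the receptor ErbB4. Nrg4 stood at -5.50, -5.40, -5.44 and -5.45 in APP-PS1_UA and at -6.69, -6.82 and -6.39 in APP-PS1_CTR. The 4 treated arrays were almost equal, including the one on slide 1, and lay above all 3 controls. The measured difference was 1.19 (SE 0.19), with adjusted p = 0.152 in limma. It was 0.35 with normexp background correction and 0.50 as the mean over the probes of the gene. The probe is dim: it was well above background on 4 of 4 APP-PS1_UA arrays and on 1 of 3 APP-PS1_CTR arrays. A further Nrg4 probe differed by 0.90 and the remaining one by -0.59, and both had overlapping groups.

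The promoter of Nrg4 is shown because this gene had the smallest adjusted p, beside those of Cyp1b1, a cytochrome P450 gene that is a standard target of AHR, and Gclm, a glutathione synthesis gene that is a standard target of NRF2. The sequences are RefSeq windows of 300 bases on GRCm38.p6, each from 250 bases before to 50 after the gene's start, read 5′ to 3′ on the strand of the gene. Capitals mark matches on either strand of GCGTG, the core that AHR binds, and TGACNNNGC, the core of the antioxidant response element that NRF2 binds.
Nrg4, chr9:55283576-55283875, minus strand: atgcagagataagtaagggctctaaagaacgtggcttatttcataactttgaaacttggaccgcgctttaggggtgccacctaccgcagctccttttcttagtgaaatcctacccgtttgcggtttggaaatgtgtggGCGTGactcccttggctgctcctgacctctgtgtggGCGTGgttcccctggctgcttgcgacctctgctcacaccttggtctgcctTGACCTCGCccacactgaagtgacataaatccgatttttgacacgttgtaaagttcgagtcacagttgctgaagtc
Cyp1b1, chr17:79715012-79715311, minus strand: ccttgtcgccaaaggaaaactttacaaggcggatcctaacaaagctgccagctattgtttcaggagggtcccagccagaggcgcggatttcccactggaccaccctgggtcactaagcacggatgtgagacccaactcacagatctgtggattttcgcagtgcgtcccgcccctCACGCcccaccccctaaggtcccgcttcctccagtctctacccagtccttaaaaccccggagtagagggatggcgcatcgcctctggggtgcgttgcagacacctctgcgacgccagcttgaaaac
Gclm, chr3:122245307-122245606, plus strand: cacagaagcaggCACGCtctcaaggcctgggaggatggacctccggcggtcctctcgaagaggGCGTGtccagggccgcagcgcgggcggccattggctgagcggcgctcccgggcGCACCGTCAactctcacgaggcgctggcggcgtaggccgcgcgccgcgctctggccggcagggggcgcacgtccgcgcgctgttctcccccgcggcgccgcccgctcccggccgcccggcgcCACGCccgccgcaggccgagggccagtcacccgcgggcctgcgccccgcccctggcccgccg
The Nrg4 window holds 2 matches of GCGTG and 1 of TGACNNNGC, the Cyp1b1 window holds 1 of GCGTG, and the Gclm window holds 3 of GCGTG and 1 of TGACNNNGC. Over 32851 mouse promoter windows, 32.4% hold GCGTG and 12.4% hold TGACNNNGC, so neither match is rare. Gclm itself stood at 1.6, 1.77, 1.71 and 1.69 in APP-PS1_UA and at 1.65, 1.70 and 1.70 in APP-PS1_CTR, a difference of 0.01 (SE 0.10). Cyp1b1 stood at -1.95, -2.54, -2.27 and -2.98 in APP-PS1_UA and at -2.60, -1.43 and -1.70 in APP-PS1_CTR, a difference of -0.52 (SE 0.51). Both genes had overlapping groups.

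**Figure D1:**
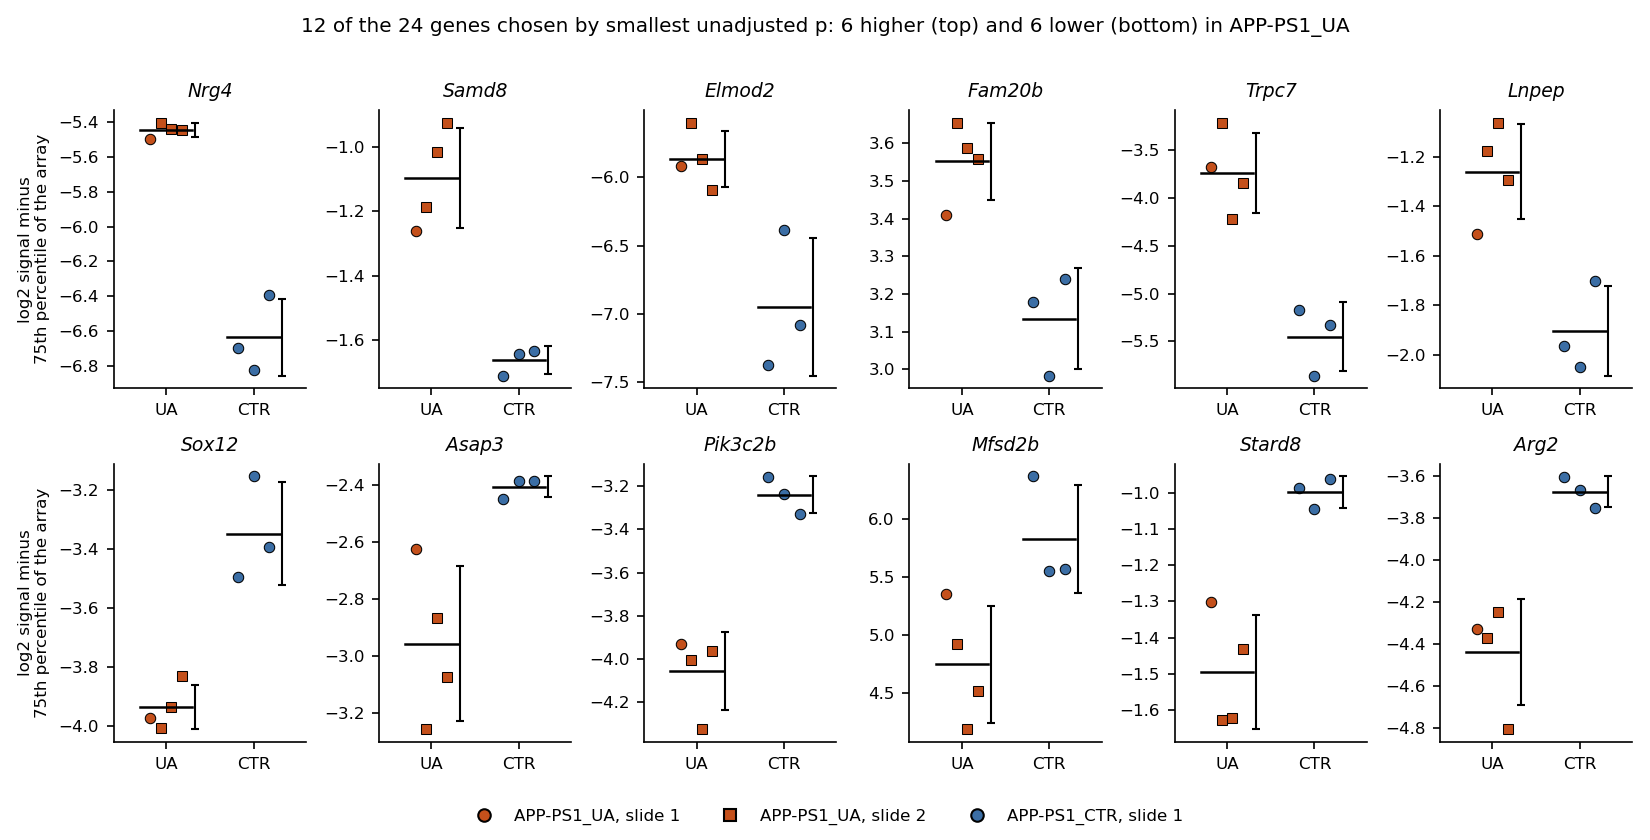
Levels (log2 signal minus the 75th percentile of the array, vertical axis) of 12 of the 24 genes chosen by smallest unadjusted p, with APP-PS1_UA in orange (circle, slide 1; squares, slide 2) left of APP-PS1_CTR in blue, the mean as a line and the SD as a bar. The groups do not overlap in any panel, which the choice of genes fixed. The treated array of slide 1 lies with the other treated arrays for Nrg4 but closest to the controls for Fam20b, Samd8, Lnpep, Asap3, Mfsd2b and Stard8.

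The other genes of the 12 were taken as the higher genes of smallest unadjusted p whose groups did not overlap, so their separation is part of the choice. Samd8, a ceramide phosphoethanolamine synthase of the endoplasmic reticulum, stood at -1.26, -1.19, -1.01 and -0.92 in APP-PS1_UA and at -1.71, -1.64 and -1.63 in APP-PS1_CTR, a difference of 0.57 (SE 0.12). Fam20b, a kinase that phosphorylates xylose in the linker of proteoglycans, stood at 3.41, 3.65, 3.59 and 3.56 in APP-PS1_UA and at 3.18, 2.98 and 3.24 in APP-PS1_CTR, a difference of 0.42 (SE 0.10). In both genes the treated arrays lay above all controls, and APP-PS1_UA 1 was the treated array nearest to the controls.

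The small GTPases Rab8a, of exocytic traffic, and Rab9b, of late endosomes, were both higher by 0.39 (SE 0.10 for each), and in APP-PS1_UA 1 alone by 0.25 for Rab8a and 0.20 for Rab9b. Elmod2, a GTPase-activating protein for the Arf family, was higher by 1.08 (SE 0.24) on a dim probe that was well above background on 4 of 4 APP-PS1_UA arrays and 1 of 3 APP-PS1_CTR arrays. Lnpep, the insulin-regulated aminopeptidase, differed by 0.64 (SE 0.17; 0.39 in APP-PS1_UA 1 alone), and Slmap, a tail-anchored membrane protein, by 0.35 (SE 0.09). Trpc7, a calcium-permeable cation channel, stood at -3.67, -3.21, -4.21 and -3.84 in APP-PS1_UA and at -5.17, -5.86 and -5.33 in APP-PS1_CTR, a difference of 1.72 (SE 0.43). Gnb4, a G protein beta subunit, was higher by 0.50 (SE 0.13). For Rab8a the other probe differed by -0.00, so that one probe of the pair carries its value.

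Zmym1, a zinc finger gene, shows how a single spot can make a difference. It stood at 0.03, 0.24, 0.23 and 0.21 in APP-PS1_UA and at -0.17 and -3.11 in APP-PS1_CTR 2 and 3, with the value of APP-PS1_CTR 1 left out as an outlier spot. The difference of 1.82 (SE 0.43) thus rests on APP-PS1_CTR 3, and its other probe differed by 0.13. The same array held 28 features more than 3 log2 units below every other array of the 24, against 0 in each APP-PS1_UA array except APP-PS1_UA 3, with 1. Csf1, the growth factor of microglia, was one of them: it stood at 0.92, 0.80, 0.81 and 0.71 in APP-PS1_UA and at 1.06, 1.10 and -7.43 in APP-PS1_CTR, so its difference of 2.57 (SE 1.19) comes from 1 control spot. Chpt1, which makes phosphatidylcholine, had a difference of 3.53 (SE 1.01) for the same reason, with -0.92 and -8.08 in APP-PS1_CTR 2 and 3. Without APP-PS1_CTR 2, limma called 3 genes, Zmym1, Chpt1 and Atp7b, each of which has its low value in APP-PS1_CTR 3 and no value in APP-PS1_CTR 1.

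The 12 lower genes chosen in the same way were of another kind, and many were dim. Sox12, a transcription factor of the SoxC group, stood at -3.97, -4.00, -3.93 and -3.83 in APP-PS1_UA and at -3.49, -3.15 and -3.39 in APP-PS1_CTR, a difference of -0.59 (SE 0.14). Arg2, the mitochondrial arginase, stood at -4.33, -4.37, -4.25 and -4.81 in APP-PS1_UA and at -3.61, -3.67 and -3.76 in APP-PS1_CTR, a difference of -0.76 (SE 0.21). Pik3c2b, a class II phosphoinositide kinase, stood at -3.93, -4.00, -4.32 and -3.96 in APP-PS1_UA and at -3.16, -3.23 and -3.33 in APP-PS1_CTR, a difference of -0.81 (SE 0.22). The 4 treated arrays lay below all 3 controls in each, and the array of slide 1 lay close to the other treated ones. A second probe of Pik3c2b differed by 0.12, with overlapping groups.

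Mfsd2b, known as a sphingosine 1-phosphate transporter of red blood cells and platelets, stood at 5.36, 4.92, 4.19 and 4.52 in APP-PS1_UA and at 6.37, 5.55 and 5.57 in APP-PS1_CTR, a difference of -1.08 (SE 0.27; -0.47 in APP-PS1_UA 1 alone). A second Mfsd2b probe was far dimmer, with a mean level of -6.25 against 5.63, and differed by -0.35, also without overlap. Asap3, a GTPase-activating protein for Arf proteins, differed by -0.55 (SE 0.15; -0.22 in APP-PS1_UA 1 alone), and Stard8 by -0.50 (SE 0.14). A second, dimmer Stard8 probe differed by 0.28. Of 3 olfactory receptor genes in the group, Olfr665 differed by -1.68 (SE 0.32, adjusted p = 0.189 in limma) and Olfr1333 by -1.0 (SE 0.24). Olfr61 and the uncharacterised 2010106C02Rik were well above background on 0 of 4 APP-PS1_UA arrays and 3 of 3 APP-PS1_CTR arrays. For these genes a dim spot was counted at the lowest signal called above background on its array. The APP-PS1_UA mean of these arrays was then at least 1.51-fold lower for Olfr61 (measured means -8.30 in APP-PS1_UA and -6.17 in APP-PS1_CTR). For 2010106C02Rik it was at least 1.94-fold lower (-6.68 in APP-PS1_UA and -5.70 in APP-PS1_CTR). These bounds carry no sampling error, and neither gene passed (adjusted p = 0.652 for each in limma). The predicted gene Gm16291 differed by -0.94 (SE 0.26).

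The share of features without overlap depended on signal. In the brightest signal quartile of features by mean level, 9.46% were higher and 4.87% lower without overlap, and in the dimmest signal quartile 3.20% were higher and 3.87% lower. Of the brightest signal quartile 79.1% of features have a symbol, and of the dimmest one 34.0%.

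The lists of mitochondrial and lysosomal genes that urolithin A is best known for had medians close to 0. Below 0 were 17 of 38 mitophagy and autophagy genes and 26 of 35 lysosomal genes. The same held for 10 of 34 oxidative phosphorylation genes and 9 of 29 genes of mitochondrial biogenesis and dynamics. Over all features 53.6% were below 0, and these leanings were not tested. In the list of mitophagy and autophagy genes 38 members were measured and 0 were called. The median difference was 0.01, beside -0.02 over all 35205 features. Without overlap 5 members were higher and 1 lower (15.8% in either direction, against 10.9% over all features). Bnip3, a mitophagy receptor on the outer mitochondrial membrane, stood at 3.98, 4.04, 4.04 and 3.98 in APP-PS1_UA and at 3.77, 3.76 and 3.90 in APP-PS1_CTR, a difference of 0.20 (SE 0.08). Ulk1, the kinase that starts autophagosome formation, stood at 3.27, 3.44, 3.41 and 3.50 in APP-PS1_UA and at 3.25, 3.11 and 3.17 in APP-PS1_CTR, a difference of 0.23 (SE 0.09). The groups separated narrowly for both genes, and for Ulk1 the treated array on slide 1 was nearest to the controls. The mean over both Ulk1 probes differed by -0.01, a change of sign.

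Atg12, the ubiquitin-like protein conjugated during autophagosome growth, was higher by 0.28 (SE 0.11) and the mitophagy receptor Fundc1 by 0.18 (SE 0.10). Atg14, which targets the lipid kinase complex of autophagy, differed by -0.16 (SE 0.10). Pink1, the kinase that marks damaged mitochondria for removal, stood at 4.03, 4.30, 4.36 and 4.28 in APP-PS1_UA and at 4.51, 4.30 and 4.32 in APP-PS1_CTR. Its groups overlapped, with the lowest value in APP-PS1_UA 1 and the highest in APP-PS1_CTR 1, and the 95% interval of its difference ran from -0.33 to 0.06. The receptor Bnip3l differed by 0.01 (SE 0.12).

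Among 34 measured oxidative phosphorylation genes 4 were higher and 0 lower without overlap, with a median of 0.03. These were Atp5a1, the alpha subunit of ATP synthase (0.18, SE 0.08), the complex IV subunit Cox7c (0.16, SE 0.08) and the complex I subunits Ndufs7 (0.16, SE 0.09) and Ndufb5 (0.14, SE 0.08). A second, dimmer Atp5a1 probe differed by -0.07, with overlapping groups. The anchors of 3 complexes overlapped and differed by little: Ndufs1 of complex I by -0.02 (SE 0.07), Sdha of complex II by 0.06 (SE 0.12) and Cox4i1 of complex IV by 0.03 (SE 0.08). Of 29 genes of mitochondrial biogenesis and dynamics 2 were higher without overlap, the fission factors Mief1 (0.18, SE 0.12) and Mff (0.12, SE 0.09), and the median was 0.07. Ppargc1a, the coactivator PGC-1alpha, stood at 1.61, 2.13, 2.26 and 1.97 in APP-PS1_UA and at 1.72, 1.64 and 1.84 in APP-PS1_CTR: 3 treated arrays lay above the controls and the one on slide 1 lay below them. Of 35 lysosomal genes 1 was higher without overlap, the proton pump subunit Atp6v1a (0.22, SE 0.10), and the median was -0.07. The cathepsin gene Ctsz stood at 2.19, 1.64, 1.96 and 1.66 in APP-PS1_UA and at 1.99, 2.25 and 2.30 in APP-PS1_CTR, a difference of -0.31 (SE 0.18) with overlap.

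**Figure D2:**
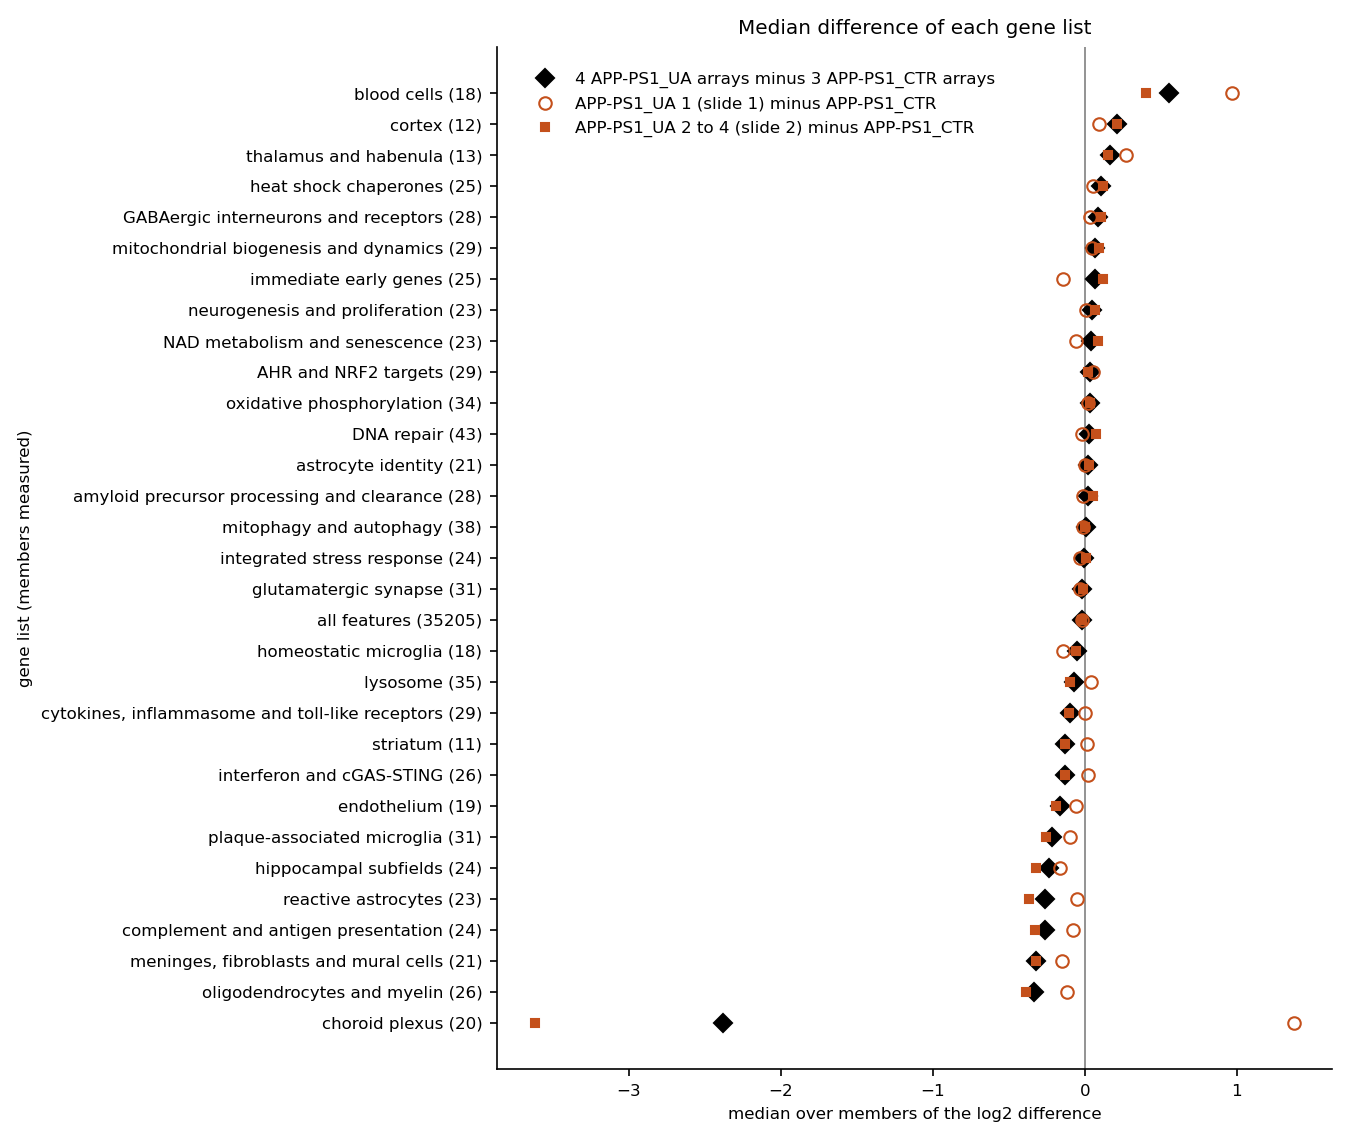
Median log2 difference over the measured members of each of the 30 gene lists and over all features (horizontal axis; list and number of members on the vertical axis), for all 4 APP-PS1_UA arrays minus APP-PS1_CTR (black diamonds), APP-PS1_UA 1 alone (open orange circles) and APP-PS1_UA 2 to 4 (orange squares). Of the lists, 16 lie within 0.1 of 0, the choroid plexus list lies at -2.38 with a slide 1 value of 1.38, and the reactive astrocyte, complement, plaque-associated microglial and oligodendrocyte lists lie further below 0 in the arrays of slide 2 than in APP-PS1_UA 1.

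In all 30 lists were looked at, with 725 of their 759 genes measured. Limma called 0 of these genes, at a smallest adjusted p of 0.652, and 53 had an unadjusted p under 0.05. Without overlap 49 were higher (6.76%) and 42 lower (5.79%), shares close to those over all features (5.75% and 5.16%). These are the background to each list's count. In either direction the share was 10.9% over all features and 0% (as in choroid plexus) to 30.8% (thalamus and habenula) by list. It was 11.8% for oxidative phosphorylation, 13.8% for cytokines, 16.7% for complement and 17.4% for reactive astrocytes. It was 17.9% for amyloid genes, 20.9% for DNA repair, 26.9% for oligodendrocytes and 29.2% for hippocampal subfields. The median was below -0.2 in 7 lists, 4 of them of glia.

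Reactive astrocyte genes had a median of -0.27, with 20 of 23 members below 0, 3 lower and 1 higher without overlap. Gfap, the intermediate filament protein of reactive astrocytes, stood at 3.1, 3.00, 2.86 and 2.93 in APP-PS1_UA and at 3.35, 3.44 and 3.52 in APP-PS1_CTR. All treated arrays lay below all controls, and the one on slide 1 was the nearest to them. The difference was -0.46 (SE 0.20, 95% interval -0.87 to -0.05, 0.726-fold), with adjusted p = 0.668 in limma. In WT_CTR Gfap averaged 2.48 ± 0.16 (SD, n = 4), and the APP-PS1_CTR minus WT_CTR difference was 0.95 (SE 0.20, adjusted p = 0.0529 in limma). That second difference shares the APP-PS1_CTR arrays with the first.

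Vim, the vimentin gene, stood at 2.15, 2.03, 1.87 and 1.92 in APP-PS1_UA and at 2.44, 2.51 and 2.36 in APP-PS1_CTR, a difference of -0.44 (SE 0.21). Serpina3n, a protease inhibitor secreted by reactive astrocytes, stood at -0.73, -0.74, -1.02 and -1.44 in APP-PS1_UA and at -0.55, -0.54 and -0.38 in APP-PS1_CTR, a difference of -0.49 (SE 0.28). Both genes repeat the order of Gfap, with the groups apart and APP-PS1_UA 1 among the treated arrays closest to the controls. S100a10, an annexin partner of reactive astrocytes, lay the other way, higher by 0.33 (SE 0.22). Genes of astrocyte identity had a median of 0.02, and Slc1a2, the main glutamate transporter, stood at 3.1, 3.21, 3.46 and 3.30 in APP-PS1_UA and at 3.03, 2.64 and 3.03 in APP-PS1_CTR, a difference of 0.37 (SE 0.15) without overlap. The summed linear level of the reactive list, in which bright genes such as Gfap and Vim weigh most, ran from 27.7 to 30.6 in APP-PS1_UA and from 31.5 to 37.0 in APP-PS1_CTR. The separation of Gfap and Vim is part of this sum, which is therefore no separate support. The sums did not overlap, but the list's mean log2 level did. That mean was -0.95, -1.19, -1.06 and -1.36 in APP-PS1_UA and -1.18, -0.69 and -0.88 in APP-PS1_CTR. With APP-PS1_UA 1 alone the list's median was -0.05, and without APP-PS1_CTR 2 it was -0.16.

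**Figure D3:**
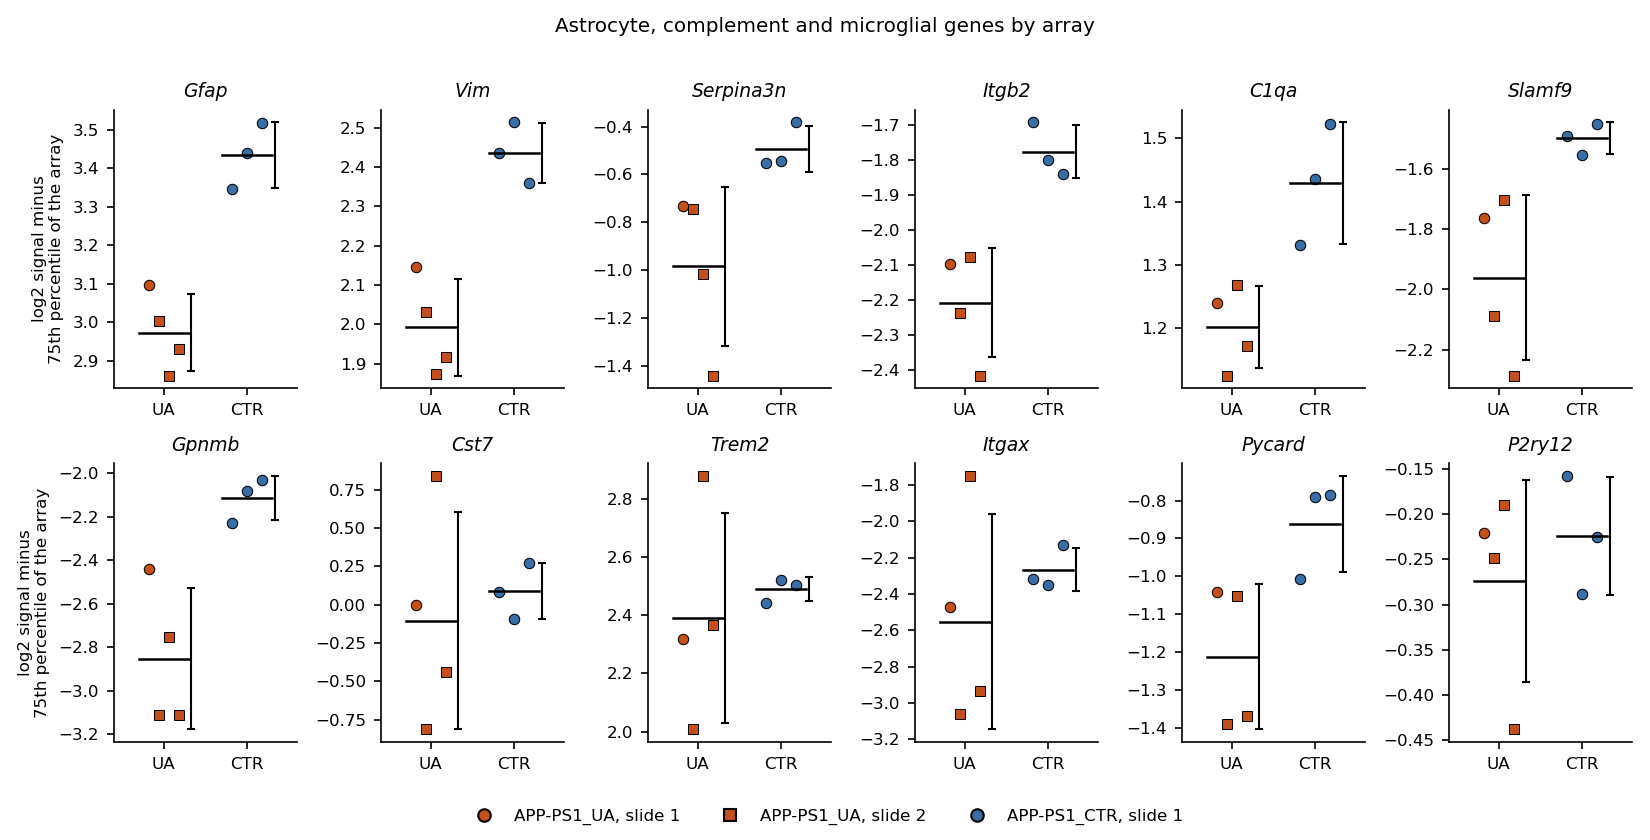
Levels (log2 signal minus the 75th percentile of the array, vertical axis) of 12 astrocyte, complement and microglial genes in the 4 APP-PS1_UA arrays (orange; circle, slide 1; squares, slide 2) left of the 3 APP-PS1_CTR arrays (blue), with the mean as a line and the SD as a bar. Gfap, Vim, Serpina3n, Itgb2, C1qa, Slamf9, Gpnmb and Pycard have groups that do not overlap, whereas Cst7, Trem2, Itgax and P2ry12 overlap, with APP-PS1_UA 3 the highest of all 7 arrays for Cst7, Trem2 and Itgax.

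Complement and antigen presentation genes had a median of -0.27, and all 24 measured members were below 0, against 53.6% of all features. The groups did not overlap for 4 of them. Itgb2, the beta chain of complement receptor 3, stood at -2.10, -2.24, -2.08 and -2.42 in APP-PS1_UA and at -1.69, -1.80 and -1.84 in APP-PS1_CTR, a difference of -0.43 (SE 0.17). Itgam, the alpha chain of that receptor, stood at 4.31, 4.48, 4.40 and 4.42 in APP-PS1_UA and at 5.18, 4.60 and 4.52 in APP-PS1_CTR, a difference of -0.37 (SE 0.17). C1qa, the first chain of C1q, stood at 1.24, 1.13, 1.27 and 1.17 in APP-PS1_UA and at 1.33, 1.44 and 1.52 in APP-PS1_CTR, a difference of -0.23 (SE 0.17). The gap between the groups was narrow for C1qa and Itgam, and a dim second Itgam probe differed by 0.26. C5ar1, the C5a receptor, differed by -0.36 (SE 0.22), with APP-PS1_UA 1 and 3 at -4.67 just below APP-PS1_CTR 1 at -4.66.

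C4b, a complement component raised in plaque-bearing brain, stood at 3.40, 3.1, 3.67 and 3.47 in APP-PS1_UA and at 3.39, 3.93 and 3.56 in APP-PS1_CTR, a difference of -0.22 (SE 0.18) with overlap. A second, dimmer C4b probe differed by -0.40, without overlap. C3 stood at -0.10, 0.23, -2.37 and -1.43 in APP-PS1_UA and at -0.12, 0.20 and 0.12 in APP-PS1_CTR. Its 2 low values were those of APP-PS1_UA 3 and 4, which were also the arrays lowest in choroid plexus transcripts, and the part of that tissue in C3 was not tested. The summed linear level of the list, in which bright genes such as Itgam weigh most, ran from 59.9 to 69.2 in APP-PS1_UA and from 76.4 to 84.0 in APP-PS1_CTR. The separation of Itgam is part of this sum, which is therefore no separate support. The sums did not overlap, but the list's mean log2 level did. That mean was -0.45, -0.63, -0.76 and -1.19 in APP-PS1_UA and -0.80, -0.17 and -0.22 in APP-PS1_CTR. The list's median was -0.08 in APP-PS1_UA 1 alone and -0.17 without APP-PS1_UA 4.

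Of 31 measured genes of plaque-associated microglia 28 were below 0, against 53.6% of all features, and the median was -0.22. Limma called 0 of them, and 3 were lower (9.68%, against 5.16% of all features) and 0 higher without overlap. Slamf9, an immune receptor, stood at -1.77, -2.09, -1.70 and -2.29 in APP-PS1_UA and at -1.49, -1.55 and -1.45 in APP-PS1_CTR, a difference of -0.46 (SE 0.17). Gpnmb, a glycoprotein of lipid-laden phagocytes, stood at -2.44, -3.11, -2.75 and -3.11 in APP-PS1_UA and at -2.23, -2.08 and -2.03 in APP-PS1_CTR, a difference of -0.74 (SE 0.30). Lpl, the lipoprotein lipase, differed by -0.19 (SE 0.12). For Slamf9 and Gpnmb all treated arrays lay below all controls.

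The receptors and inhibitor that define this microglial state had overlapping groups. Trem2, the lipid receptor on which the state depends, stood at 2.32, 2.01, 2.88 and 2.36 in APP-PS1_UA and at 2.44, 2.52 and 2.5 in APP-PS1_CTR, a difference of -0.10 (SE 0.18, 95% interval -0.46 to 0.27). Itgax, the integrin CD11c, stood at -2.47, -3.06, -1.75 and -2.93 in APP-PS1_UA and at -2.32, -2.35 and -2.13 in APP-PS1_CTR, a difference of -0.29 (SE 0.31). Cst7, whose levels are given above, differed by -0.19 (SE 0.37, 95% interval -0.96 to 0.57). In all 3 genes APP-PS1_UA 3 was the highest of the 7 arrays and APP-PS1_UA 2 the lowest, so that the controls lay inside the range of the treated arrays. The list's median deviation from the APP-PS1_CTR mean was -0.10, -0.37, 0.12 and -0.53 in APP-PS1_UA 1 to 4, against -0.06 to 0.05 in the 3 APP-PS1_CTR arrays. Without APP-PS1_UA 2 or 4 the median difference was -0.13 or -0.12.

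Homeostatic microglial genes had a median of -0.05. P2ry12, the purinergic receptor of resting microglia, stood at -0.22, -0.25, -0.19 and -0.44 in APP-PS1_UA and at -0.16, -0.29 and -0.23 in APP-PS1_CTR, with overlap. Tmem119 (-0.03, SE 0.15) and the brighter probe of Cx3cr1, the fractalkine receptor (0.02, SE 0.13), differed by less than their SE. The other Cx3cr1 probe differed by -0.32, without overlap, so the probes of this gene disagree. Interferon and cGAS-STING genes, with 0 of 26 members without overlap and a median of -0.13, varied as widely among the controls: the list's median deviation ran from -0.40 to 0.02 in APP-PS1_UA and from -0.35 to 0.46 in APP-PS1_CTR. Its median turned to 0.10 without APP-PS1_CTR 2. Of 29 cytokine, inflammasome and toll-like receptor genes 3 were lower and 1 higher without overlap. Pycard, the adaptor ASC of inflammasomes, stood at -1.04, -1.39, -1.05 and -1.37 in APP-PS1_UA and at -1.01, -0.79 and -0.79 in APP-PS1_CTR, a difference of -0.35 (SE 0.11, adjusted p = 0.652 in limma). The gap of Pycard between APP-PS1_UA 1 and APP-PS1_CTR 1 was small. Nfkb1, a subunit of NF-kappaB, differed by -0.37 (SE 0.18), Ptgs2, the cyclooxygenase COX-2, by -0.51 (SE 0.27), and Tlr3, the sensor of double-stranded RNA, by 0.28 (SE 0.15).

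The myelin and oligodendrocyte list had its median at -0.34, with 21 of 26 members below 0, 6 lower and 1 higher without overlap. Mog, a myelin surface glycoprotein, stood at -0.17, -0.15, -0.67 and -0.77 in APP-PS1_UA and at 0.01, -0.07 and 0.11 in APP-PS1_CTR, a difference of -0.45 (SE 0.23). Trf, the transferrin gene expressed by oligodendrocytes and choroid plexus, stood at 5.49, 5.24, 5.09 and 4.77 in APP-PS1_UA and at 5.74, 5.51 and 5.55 in APP-PS1_CTR, a difference of -0.45 (SE 0.23). Both were lowest in APP-PS1_UA 3 and 4, and without these 2 arrays the list's median was -0.13. Mbp, myelin basic protein, went against its own list: the brightest probe was higher by 0.42 (SE 0.14), at 2.85, 3.23, 3.16 and 3.27 in APP-PS1_UA and at 2.77, 2.64 and 2.71 in APP-PS1_CTR. The 2 other Mbp probes were lower by -0.61 and -0.51, also without overlap, and the mean over the 3 probes differed by -0.23. The brightest probe is annotated to a different Mbp transcript than the other pair, so no direction is given for the gene.

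Synaptic and neuronal lists lay near 0. Glutamatergic synapse genes had a median of -0.02, with 2 higher and 2 lower of 31 without overlap. Grm5, the metabotropic glutamate receptor 5, stood at 4.29, 4.27, 4.55 and 4.46 in APP-PS1_UA and at 4.17, 3.86 and 3.98 in APP-PS1_CTR, a difference of 0.39 (SE 0.15) that its 3 probes shared in sign. The AMPA receptor subunit Gria3 differed by -0.19 (SE 0.09) and the NMDA receptor subunit Grin2b by 0.25 (SE 0.15). Of 28 GABAergic genes 3 were higher and 1 lower without overlap. Slc32a1, the vesicular transporter that loads GABA, stood at 4.84, 4.98, 4.73 and 4.42 in APP-PS1_UA and at 4.24, 4.18 and 4.30 in APP-PS1_CTR, a difference of 0.50 (SE 0.17), and the treated array on slide 1 was well inside the treated range. Gabbr2, a subunit of the metabotropic GABA receptor, was higher by 0.49 (SE 0.19; 0.14 in APP-PS1_UA 1 alone) and Calb1, calbindin, by 0.30 (SE 0.14), whereas the interneuron markers Gad1 (0.09, SE 0.11), Pvalb (0.02, SE 0.16) and Sst (-0.07, SE 0.17) overlapped.

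Activity-dependent genes varied between animals of both groups. Fos stood at -0.89, 0.07, 1.0 and -1.48 in APP-PS1_UA and at -1.35, -0.64 and 0.47 in APP-PS1_CTR, a spread far larger than the difference of 0.18 (SE 0.53). Sik1, a salt-inducible kinase, was higher by 0.40 (SE 0.15) and Homer1, a postsynaptic scaffold, by 0.23 (SE 0.09), both without overlap, and Bdnf, the neurotrophin, was lower by -0.37 (SE 0.19). Dimmer Homer1 probes differed by -0.03, with overlap, and by 0.52, without overlap. In the list of neurogenesis and proliferation 3 of 23 members were higher without overlap: Dcx, a marker of newborn neurons (0.37, SE 0.22), Neurog2 (0.79, SE 0.42) and Hes5 (0.55, SE 0.38). Dcx stood at -1.67, -1.07, -1.27 and -1.54 in APP-PS1_UA and at -1.72, -1.83 and -1.73 in APP-PS1_CTR. The treated array of slide 1 lay just above the highest control.

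Genes of amyloid production and clearance lay on both sides of 0, 12 of 28 below it. App differed by -0.01 (SE 0.11) and the beta-secretase Bace1 by 0.08 (SE 0.11), with overlap. Of 28 measured members 5 were higher and 0 lower without overlap, with a median of 0.02. Aph1a, a subunit of gamma-secretase, stood at 1.84, 2.05, 2.17 and 1.78 in APP-PS1_UA and at 1.47, 1.62 and 1.78 in APP-PS1_CTR, a difference of 0.34 (SE 0.12), with the top control next to the lowest treated array. Its dimmer probes differed by -0.14, 0.22 and 0.04, all with overlapping groups. Mme, the amyloid-degrading protease neprilysin, stood at -3.31, -3.13, -3.24 and -3.08 in APP-PS1_UA and at -3.59, -3.44 and -3.52 in APP-PS1_CTR, a difference of 0.32 (SE 0.17). Adam10, the alpha-secretase, differed by 0.17 (SE 0.12).

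DNA repair genes split in both directions, 5 higher and 4 lower of 43 without overlap. Chek1, the checkpoint kinase of replication stress, stood at -5.05, -4.99, -4.65 and -4.86 in APP-PS1_UA and at -5.74, -5.36 and -5.42 in APP-PS1_CTR, a difference of 0.62 (SE 0.17). A second Chek1 probe of similar level differed by -0.34, with overlapping groups. Parp1, which senses strand breaks and consumes NAD, stood at -0.07, -0.12, -0.38 and -0.06 in APP-PS1_UA and at 0.33, 0.29 and 0.14 in APP-PS1_CTR, a difference of -0.41 (SE 0.16). Among base excision glycosylases Neil1 was lower by -0.40 (SE 0.17), Neil2 higher by 0.29 (SE 0.14) and Ogg1 differed by -0.06 (SE 0.13) with overlap. Of 23 NAD and senescence genes, Nampt (0.05, SE 0.13), Cdkn2a (0.21, SE 0.24) and Cdkn1a (0.28, SE 0.26) overlapped.

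Targets of AHR and NRF2 had a median of 0.04, with 3 of 29 higher and 0 lower without overlap. Srxn1, sulfiredoxin, stood at 2.86, 3.07, 3.04 and 2.96 in APP-PS1_UA and at 2.73, 2.58 and 2.78 in APP-PS1_CTR, a difference of 0.29 (SE 0.13). Sod2, the mitochondrial superoxide dismutase, differed by 0.26 (SE 0.12) and Me1, malic enzyme, by 0.26 (SE 0.14), while Hmox1, heme oxygenase 1 (0.06, SE 0.13), and Nqo1 (-0.48, SE 0.40; 0.67 in APP-PS1_UA 1 alone) overlapped. Heat shock chaperones had a median of 0.11. Hsp90aa1, the inducible HSP90, stood at 5.59, 5.72, 5.86 and 5.70 in APP-PS1_UA and at 5.45, 5.32 and 5.44 in APP-PS1_CTR, a difference of 0.31 (SE 0.11). Dnajb1 (0.33, SE 0.16) and Dnaja1 (0.20, SE 0.12) of the same list were also higher without overlap, whereas Hspa1a (0.05, SE 0.21) overlapped. Cryab, a small chaperone of glia, lay the other way at -0.32 (SE 0.22). The integrated stress response had 3 higher and 3 lower of 24 without overlap, and its factor Atf4 differed by 0.03 (SE 0.09).

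The widest differences between single animals were in choroid plexus transcripts, which mark the cerebrospinal fluid-secreting tissue beside the hippocampus. Ttr, transthyretin, stood at 6.87, 5.14, 2.22 and 0.27 in APP-PS1_UA and at 6.33, 6.59 and 6.51 in APP-PS1_CTR. The folate receptor Folr1 stood at 3.05, -0.06, -3.13 and -3.01 in APP-PS1_UA and at 0.38, 1.81 and 2.74 in APP-PS1_CTR. All 20 measured members had a negative difference, with a median of -2.38, yet 0 of 20 separated the groups, because APP-PS1_UA 1 was above every control for most of them. The summed linear level of the list was 343, 79.7, 23.2 and 15.6 in APP-PS1_UA 1 to 4 and 145, 245 and 254 in APP-PS1_CTR 1 to 3. None of the 20 was below background on every array of either group. Without APP-PS1_UA 4 the median was -1.56, without APP-PS1_UA 3 and 4 it was -0.28, and with APP-PS1_UA 1 alone it was 1.38. The part of this tissue in the other results was not tested, and the values of the glial lists without APP-PS1_UA 3 and 4 were -0.23 for reactive astrocytes, -0.15 for complement and antigen presentation and -0.25 for plaque-associated microglia.

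**Figure D4:**
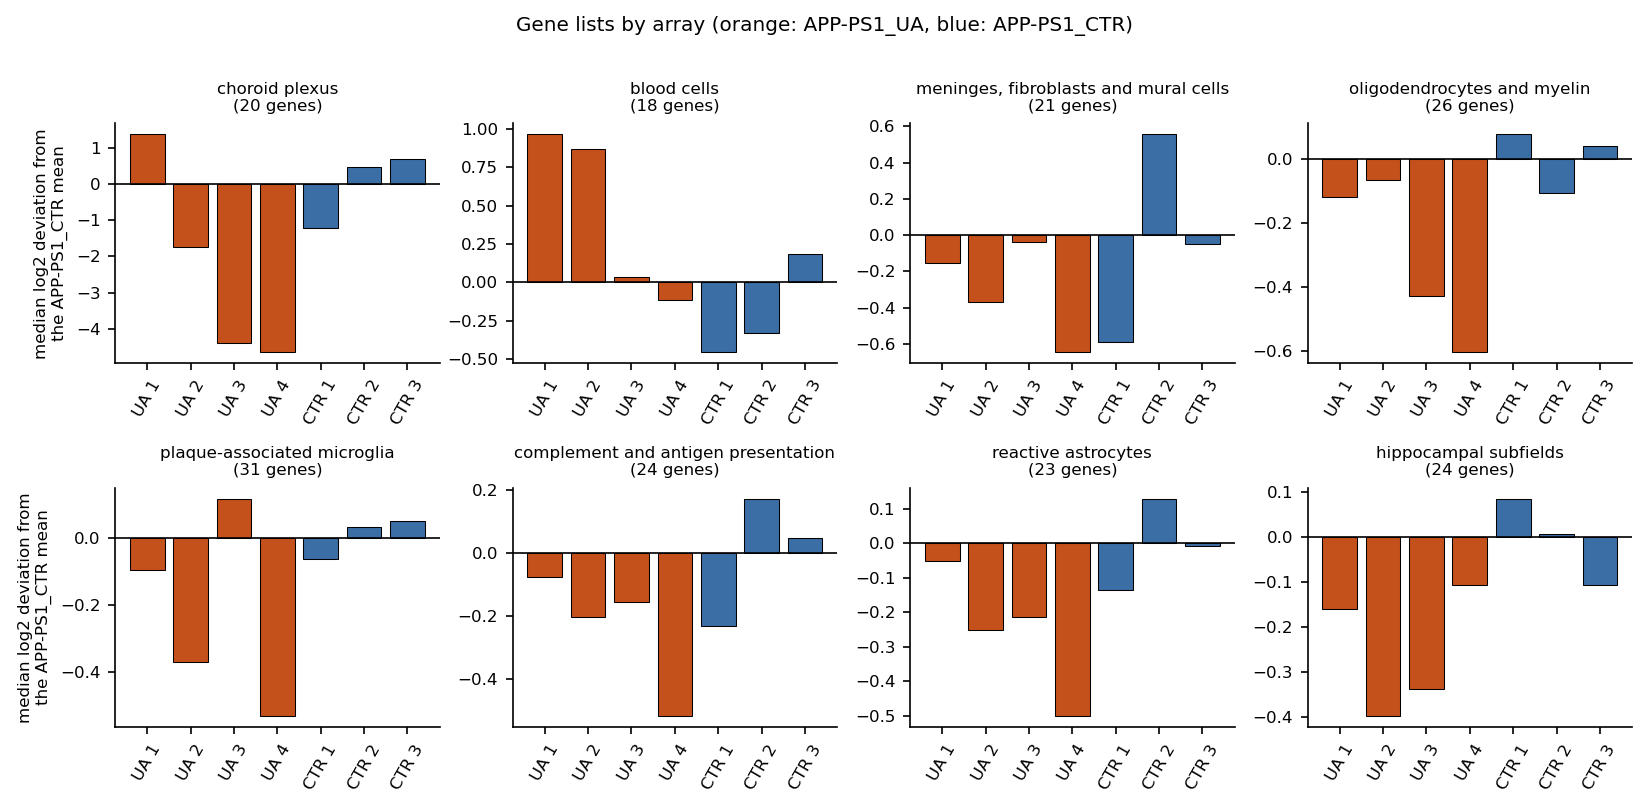
Median log2 deviation of each array from the APP-PS1_CTR mean over the measured members of 8 gene lists (vertical axis), for APP-PS1_UA 1 to 4 (orange bars) left of APP-PS1_CTR 1 to 3 (blue bars). The choroid plexus list runs from 1.38 in APP-PS1_UA 1 to -4.64 in APP-PS1_UA 4, and APP-PS1_UA 4 is also the lowest array for the oligodendrocyte, meningeal, complement, reactive astrocyte and plaque-associated microglial lists.

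Other tissue markers varied too. Blood cell genes had a median of 0.55, which was 0.21 without APP-PS1_CTR 2 and 0.86 without APP-PS1_UA 3, and no gene separated the groups: Hba-a1, a haemoglobin gene, stood at 4.67, 5.63, 3.92 and 3.23 in APP-PS1_UA and at 2.73, 2.58 and 5.59 in APP-PS1_CTR. The mural cell receptor Pdgfrb stood at -0.15, -0.11, -0.03 and -0.26 in APP-PS1_UA and at 0.27, 0.26 and 0.21 in APP-PS1_CTR, a difference of -0.39 (SE 0.13), while the list of meninges, fibroblasts and mural cells had a median of -0.32 (-0.61 without APP-PS1_CTR 1, -0.09 without APP-PS1_CTR 2) and the endothelial list -0.16. The labelled tissue was checked on 24 hippocampal markers, of which 1, Iyd, was well above background on 0 of 4 APP-PS1_UA arrays (2 of 3 APP-PS1_CTR arrays). Its anchors were bright on all 7 arrays, among them Prox1 of dentate granule cells (0.49 to 1.35 in APP-PS1_UA and 1.14 to 1.41 in APP-PS1_CTR) and Wfs1 of CA1 (2.58 to 3.07 in APP-PS1_UA and 2.98 to 3.18 in APP-PS1_CTR). Hippocampal subfield genes had a median of -0.24, with 5 lower and 2 higher of 24 without overlap, and Lct and Dsp, both of the dentate gyrus, were lowest in APP-PS1_UA 2. Lct stood at 2.89, 0.28, 1.97 and 2.69 in APP-PS1_UA and at 3.35, 3.31 and 3.09 in APP-PS1_CTR, and Dsp at 1.13, -1.10, -0.52 and 0.95 in APP-PS1_UA and at 1.2, 1.37 and 1.28 in APP-PS1_CTR. Cortical markers had a median of 0.21 (0.04 without APP-PS1_UA 3, 0.46 without APP-PS1_UA 4) and thalamic ones of 0.16, and their part in the differences was not tested.

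For several of the top genes the water-treated transgenic controls were the group that stood apart. Those controls lay in array row 2 of slide 1 and the WT_CTR arrays in row 1, and the part of the row was not tested here. Nrg4 averaged -5.45 ± 0.04 (SD, n = 4) in APP-PS1_UA, -6.64 ± 0.22 (SD, n = 3) in APP-PS1_CTR and -5.83 ± 0.24 (SD, n = 4) in WT_CTR. Trpc7 averaged -3.73 ± 0.42 in APP-PS1_UA, -5.45 ± 0.36 in APP-PS1_CTR and -3.91 ± 0.37 in WT_CTR. Mfsd2b averaged 4.75 ± 0.51 in APP-PS1_UA, 5.83 ± 0.47 in APP-PS1_CTR and 4.80 ± 0.34 in WT_CTR. In these 3 genes the APP-PS1_UA mean lay near the WT_CTR mean, whereas for Sox12 WT_CTR averaged -3.48 ± 0.13, nearer to APP-PS1_CTR at -3.35 ± 0.18 than to APP-PS1_UA at -3.94 ± 0.08. The APP-PS1_CTR arrays enter both differences, so a value that is low in those 3 animals moves both, and none of these genes passed in either comparison (adjusted p for APP-PS1_CTR minus WT_CTR in limma 0.141 for Nrg4, 0.322 for Trpc7, 0.253 for Mfsd2b and 0.879 for Sox12).

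The comparison after washout uses no array of the first one, so the same genes can be followed in other animals. All 12 top higher genes differed by less than 0 there, and 6 of them were lower without overlap, against 51.7% below 0 and 2.76% lower without overlap over all features. Rab8a averaged -0.61 ± 0.13 (SD, n = 5) in APP-PS1_UA-WASHOUT and -0.26 ± 0.10 (SD, n = 3) in APP-PS1_WASHOUT, a difference of -0.35 (SE 0.10). Samd8 differed by -0.37 (SE 0.12) and Elmod2 by -0.70 (SE 0.23). Nrg4 differed by -0.07 (SE 0.18). None of the 12 passed after washout in limma.

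The test of the difference between the end-of-treatment and the washout effect called 0 of 35205 features in limma (0%), with 3437 at an unadjusted p under 0.05. Its smallest adjusted p was 0.0736, and for Samd8, at 0.94 (SE 0.17), it was 0.0763. Of the 12 lower genes 7 differed by more than 0 after washout and 0 separated the groups. Over all 2025 features higher without overlap at the end of treatment, 73.8% were below 0 after washout, and over the 1817 lower ones 52.2%. Bright features leaned that way in any case: in the brightest signal quartile 69.3% of all features were below 0 after washout, and 84.2% of those higher without overlap. The washout arrays differed in quality as well, with 68.7% ± 4.1 of spots well above background in APP-PS1_UA-WASHOUT (SD, n = 5) and 75.7% ± 1.7 in APP-PS1_WASHOUT (SD, n = 3; two-sided exact permutation p = 0.0714), and the part of this in the washout values was not tested. After washout limma called 20 features (0.0568%), 8 higher (0.0227%) and 12 lower (0.0341%), a count that ran from 9 to 81 when 1 array was left out (9 without APP-PS1_UA-WASHOUT 4 or 5, 81 without APP-PS1_WASHOUT 2).

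**Figure D5:**
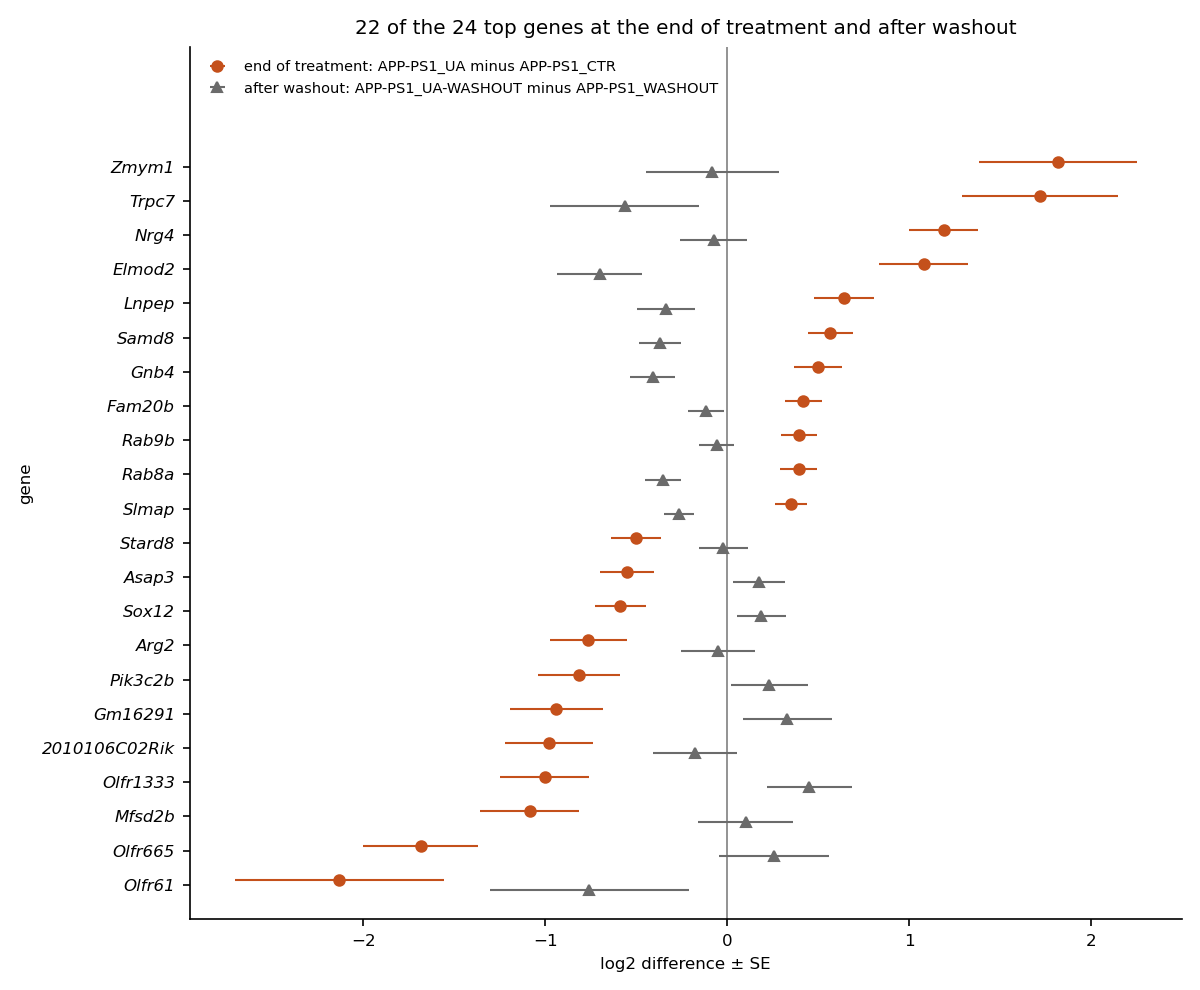
Log2 difference ± SE (horizontal axis) of 22 of the 24 top genes (vertical axis) at the end of treatment (APP-PS1_UA minus APP-PS1_CTR, orange circles) and after washout (APP-PS1_UA-WASHOUT minus APP-PS1_WASHOUT, grey triangles). The 11 genes drawn that were chosen as higher at the end of treatment all lie below 0 after washout, and the 11 chosen as lower lie on both sides of 0.

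The glial lists were also read after washout, and the difference of their medians from those at the end of treatment was not tested. Gfap averaged 3.09 ± 0.43 (SD, n = 5) in APP-PS1_UA-WASHOUT and 3.05 ± 0.33 (SD, n = 3) in APP-PS1_WASHOUT, a difference of 0.03. The median of the reactive astrocyte list was -0.04, that of complement and antigen presentation -0.05 that of plaque-associated microglia 0.09 and that of oligodendrocytes and myelin -0.32. Slamf9 differed by -0.57 after washout, in the same direction as before, and Cst7 by 0.43.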

How the data were processed

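Hippocampal RNA was measured on 24 Agilent 1-colour arrays in 6 groups taken from the sample titles. Per the file headers, the authors' scanner files hold spot intensities from Feature Extraction 12.0.3.1, background-subtracted within each array with no scaling across arrays. A score is deposited in the series matrix, each array's log signal standardized over its spots (column medians -0.17 to -0.06), which was used as an alternative only. The intensity of each of the 62976 spots (3671 controls left out) was taken as log2 minus the array's 75th percentile. Software outlier flags removed 3332 values, and probes well above background on at least 3 arrays were kept (43928 of 56605). Each gene was represented by its kept probe of highest mean signal, and 23611 probes had no symbol. The array header names an older genome build than the RefSeq annotation used for symbols, so only the promoter windows have coordinates.

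Tests were run with limma 3.58.1 in R 4.3.3 by lmFit and eBayes, with 6 group means over 24 arrays and Benjamini-Hochberg adjustment over all features, after a check on simulated data. Tables and plots used Python 3.11.15 with pandas 2.3.3, numpy 2.4.6, scipy 1.17.1 and matplotlib 3.10.9. Named genes were the 12 features of smallest unadjusted p in each direction among genes without overlap and above background on every array of a group, 3 anchors and the 2 members of smallest p of each list, genes called in a slide-adjusted fit, and 6 checks of the model. Others were singled out after their values were seen: members without overlap, and the low spots of 1 control array. The members, lists and rules were chosen with earlier results of these data known. Spike-in, background and signal measures were compared by exact permutation. The labels number the samples of a group without naming animals, so p-values measure the spread between these samples, and precision is limited by how many arrays there are. The replicate numbers did not pair the arrays. Some results are not reported here.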

Additional observations from a re-analysis of the deposited data

Results flagged for a closer look

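Within the 4 APP-PS1_UA arrays, 190 values (named genes and 30 list levels) were examined for 1 array far from the other 3, by Dixon's ratio of gap to range. Chance picks out about 1 in 20 groups, and 8 values were picked out. APP-PS1_UA 1 stood apart for Kl, a choroid plexus gene (2.93, the others -0.44 to -0.01), for Pja2, a ubiquitin ligase (4.00, the others 4.87 to 5.02), and for Zmym1 (0.03, the others 0.21 to 0.24). APP-PS1_UA 3 stood apart for the endothelial receptor Flt1 (2.90, the others 2.52 to 2.58), the neutrophil peptide gene Camp (-2.70, the others -1.99 to -1.87) and the mean level of the homeostatic microglia list (1.42, the others 1.15 to 1.17). APP-PS1_UA 4 stood apart for the microglial receptor P2ry13 (-2.16, the others -1.12 to -1.07) and the mean level of the AHR and NRF2 list (0.40, the others 0.55 each). No difference between the end-of-treatment and washout effects of a named gene passed in limma, at a smallest adjusted p of 0.0763.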

How the results depend on the processing

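The count of 0 features called at the end of treatment became 11 with the slide as a block, 9 with slide and array row as blocks and 7 with array weights. It was 0 to 3 without 1 array: 1 without APP-PS1_CTR 1 (Tas2r118) and 3 without APP-PS1_CTR 2. The slide-block fit compares APP-PS1_UA 1 alone with the controls, and its named calls (Pja2, Nkx1-2, Gm6567 and 4930425O10Rik) come from that array. The count at an unadjusted p under 0.05, 2590, was 638 with the slide block, 1034 with slide 1 alone, 671 with slide and row, 4160 with array weights, and 1640 (without APP-PS1_CTR 2) to 3864 (without APP-PS1_UA 1) without 1 array. The replicate block called 0 features, with 2457 at an unadjusted p under 0.05, and same-numbered arrays did not deviate together (correlations -0.22, -0.10 and -0.03). After washout 9 to 81 features were called without 1 array, and for the difference of the 2 effects 0 to 22 (22 without APP-PS1_WASHOUT 2). The mean over the probes of a gene turned the sign of Ulk1 (-0.0067), Mbp (-0.23) and Nmnat2 (-0.056), where the probes disagree. The cause was otherwise not tested. The 24 top genes kept their sign in each of the 23 alternatives that measured them, with 17 measured when probes had to be above background on every array. Because these genes were chosen for groups without overlap, leaving out arrays, slide 1 alone or the slide block could not turn their sign. The medians of reactive astrocytes (-0.39 to -0.02), complement (-0.38 to -0.08), oligodendrocytes (-0.43 to -0.12) and plaque-associated microglia (-0.30 to -0.06) stayed below 0 in the 22 alternatives that keep log2 units. Normexp was run on median spot signals, chosen after seeing the files, in place of the planned mean signals. Leaving out APP-PS1_UA 3 and 4 was also chosen after seeing the data.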
